A study of Mus musculus with 10 samples.

Results

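The collagen genes of mouse mammary tumours were examined, in 10 female mice of the strain FVB/N. The group consists of every gene whose symbol is Col, a type number, the letter a and a chain number, and it holds 44 of the 26063 genes in the deposited table. Bulk RNA was sequenced from end-point tumours, 5 of the genotype EIC/WT (EIC) and 5 of the genotype 16IC/WT (16IC). Mice of both genotypes received doxycycline at 2 mg/ml. The labels do not spell out EIC or 16IC, and they name neither the promoter behind the alleles nor the age of the mice. The series title concerns a HER2 variant in breast cancer. Every tumour has a separate animal name in the labels, and the numbers 1 to 5 used here serve only as names.

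Collagens are secreted or membrane-bound proteins built of 3 chains wound into a triple helix, and each chain has its own gene. Fibrillar collagens (types I, II, III, V, XI, XXIV and XXVII) form the load-bearing fibrils of connective tissue, where fibroblasts are their main source. FACIT collagens (fibril-associated collagens with interrupted triple helices) sit on the surface of fibrils, type IV collagen forms the sheet of basement membranes under epithelium and around vessels, and type VI forms beaded filaments beside cells. Type VIII and type X form hexagonal networks, type VII anchors basement membrane to the stroma below it, and types XIII, XVII, XXIII and XXV span the cell membrane. Type XVII, the product of Col17a1, belongs to the hemidesmosomes of basal epithelial cells.

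Library depth was 14813940 to 16947400 counts. Levels below are CPM, the counts scaled to library size with TMM factors, and a difference is log2 of 16IC over EIC. Luminal epithelial markers (Krt8, Krt18, Krt19, Epcam, Cdh1) summed to 3174 to 5471 CPM in every tumour. Among them, Krt19 was at 0 to 3.53 CPM in EIC 2, 16IC 1, 16IC 3 and 16IC 4 and at 233 to 446 CPM in the other tumours. Some tumours stood apart in other cell types. The sum of the 8 fibroblast markers was 149 to 549 CPM in the EIC tumours and 45.7 to 308 CPM in the 16IC tumours, lowest in 16IC 3, and none of them was at 0 in any tumour. For the 5 skeletal muscle markers the sum was 2119.8 CPM in EIC 2 and 891 CPM in EIC 1, against 0.973 to 308 CPM elsewhere. Their part in the results below was not tested, and in bulk RNA fewer cells of a type and less RNA per cell cannot be told apart.

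edgeR's quasi-likelihood test called 0 of the 37 collagen genes it tested at an adjusted p under 0.05, and 0 of all 14915 genes tested (0%). At an unadjusted p under 0.05 it passed 1958 genes (13.1%), and DESeq2 called 356 genes at its adjusted threshold (2.11% of those with an adjusted p). The other 7 collagen genes, Col4a3, Col6a4, Col6a6, Col17a1, Col19a1, Col22a1 and Col24a1, fell below the count filter. DESeq2 called 2 collagen genes of the 40 it could adjust, Col13a1 and Col18a1, both lower in 16IC, where 1.27% of all genes with an adjusted p were called lower. Of the 37 tested members, 29 had a log2 difference below 0 (78.4%, against 52.3% of all genes tested), and the median difference was -0.76 against -0.02 over all genes. An unadjusted p under 0.05 was reached by 8 members that were lower in 16IC (21.6%, against 6.29% of all genes) and by 0 that were higher (6.84% of all genes). They were Col4a1, Col4a2, Col4a5, Col5a2, Col5a3, Col10a1, Col13a1 and Col18a1, of which Col4a5 and Col5a2 are named after their values were seen. Genotypes did not overlap for 2 members, Col4a2 and Col13a1, both lower in 16IC (5.41%, against 1.19% of all genes), and 0 members were higher without overlap (1.39% of all genes). These shares describe a list in which many genes move together between tumours, and they carry no test.

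**Figure D1:**
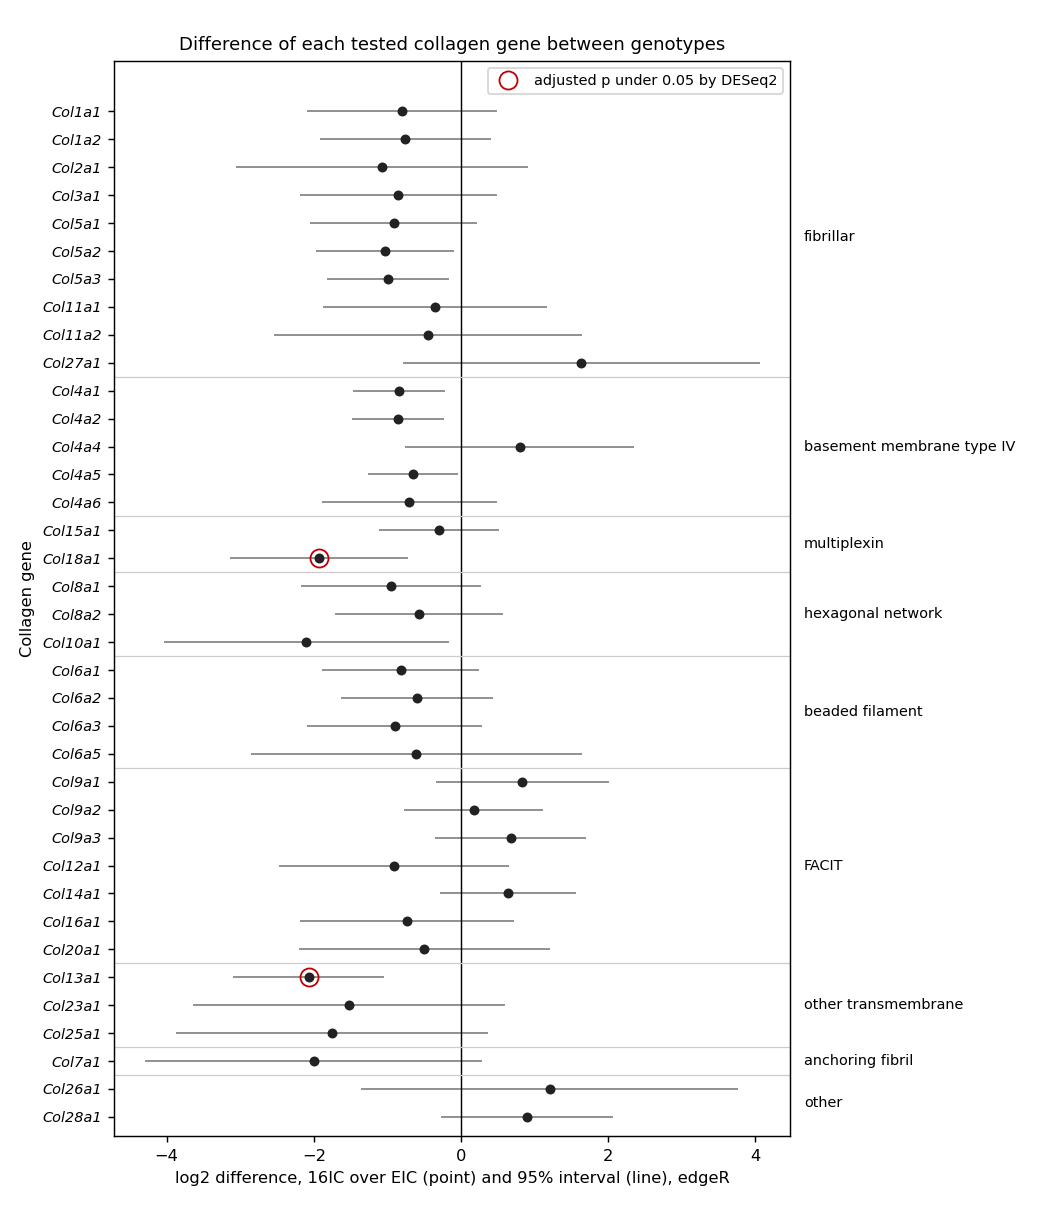
Each point is the edgeR log2 difference of 1 tested collagen gene, 16IC over EIC, and each line its 95% interval, with genes grouped by class. Of the 37 points, 29 lie left of 0, and the rings mark Col13a1 and Col18a1, the members with a DESeq2 adjusted p under 0.05.

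All collagen genes together made up 0.506% to 1.2% of the counts of a tumour. Summed collagen was 11360.5, 7915, 11811, 10454 and 6594 CPM in EIC 1 to EIC 5 and 8851, 7635, 5159, 6443 and 7788 CPM in 16IC 1 to 16IC 5. The genotypes overlapped, with means of 9627 ± 2269 CPM in EIC and 7175 ± 1414 CPM in 16IC (SD, n = 5 each). Fibrillar collagens gave 4743 ± 1493 CPM in EIC and 3034 ± 1222 CPM in 16IC, and Col1a1 was their leading gene with 25.5% of the class sum. FACIT collagens, led by Col9a1 with 48.4%, gave 2036 ± 574 CPM in EIC and 2576 ± 578 CPM in 16IC. Type IV collagens, led by Col4a1 with 44.5%, gave 1816 ± 680.2 and 1053 ± 246 CPM. The makeup of the sum differed between tumours as well. FACIT collagens took 13.8% of all collagen CPM in EIC 1 and 52.6% in 16IC 3, while the fibrillar share ran from 24.7% in 16IC 3 to 61.7% in EIC 1.

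**Figure D2:**
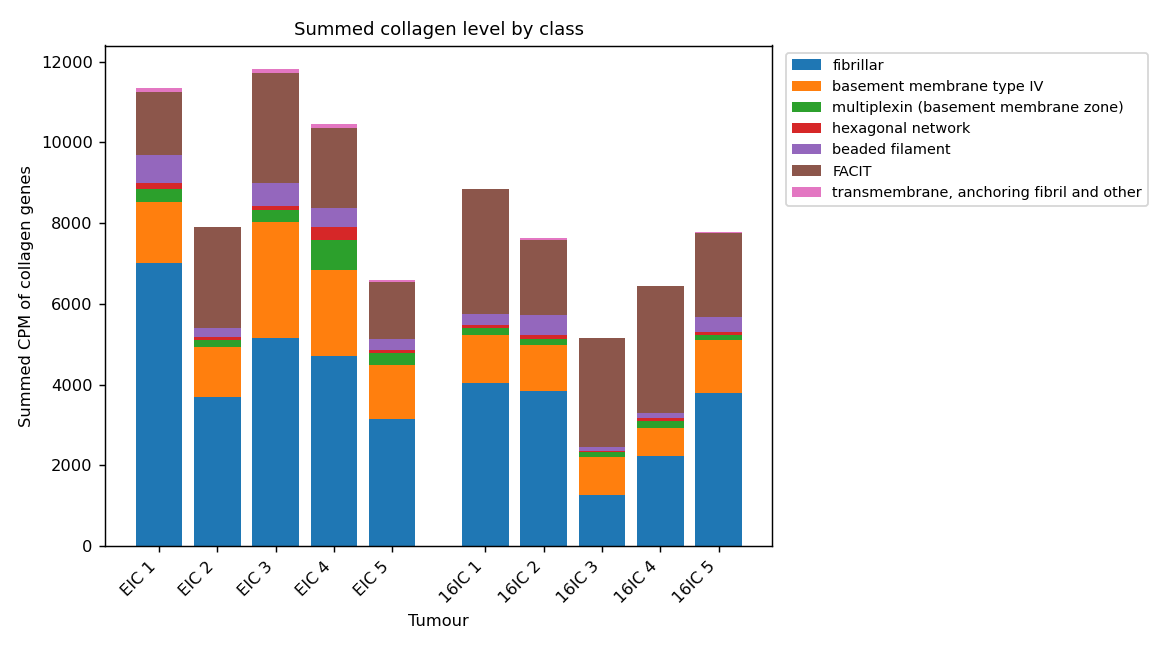
Bars give the summed CPM of the collagen genes in each tumour, stacked by class. The FACIT section is 2712 to 3139 CPM tall in 16IC 1, 16IC 3, 16IC 4 and EIC 3 and shorter in the other tumours, while the fibrillar section of 16IC 3 (1276 CPM) is the shortest of the 10.

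Per kilobase of exon, the highest mean level over the 10 tumours belonged to Col9a1, a chain of type IX collagen best known from cartilage, at 220.3 ± 139 CPM per kb (SD, n = 10). Col1a1 followed at 151 ± 94.1, Col9a2 at 92.9 ± 44.6, Col3a1 at 90.5 ± 62.7 and Col4a1 at 85.5 ± 42.2 CPM per kb. These neighbours lie within each other's spread, and Col9a1 exceeded Col1a1 in 5 of the 10 tumours. With the longest coding transcript as the length, Col1a2 moved from 58.5 to 136 and Col3a1 from 90.5 to 159.7 CPM per kb, and Col9a1 stayed highest at 291.

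The proximal promoters of 5 members are printed here because their genes represent the patterns described below. Col3a1 and Col5a1 were lowest in 16IC 3 and 16IC 4, Col9a1 and Col11a2 were not, and Col13a1 had the smallest edgeR p of the group. Each run is the 150 bases upstream of a RefSeq start site on GRCm38.p6, 5′ to 3′ on the strand of the gene, and none overlaps an annotated exon. Capitals mark, on either strand, the motif of the TATA box (TATAAA), of the CCAAT box and of the GC box (GGGCGG). Col9a1 has another start window, at 24195053 to 24195202, which holds CCAAT and is not printed. The Col11a2 window ends at 34039137, upstream of the annotated start of the gene at 34039437.
Col3a1 (chr1:45311388-45311537, plus strand): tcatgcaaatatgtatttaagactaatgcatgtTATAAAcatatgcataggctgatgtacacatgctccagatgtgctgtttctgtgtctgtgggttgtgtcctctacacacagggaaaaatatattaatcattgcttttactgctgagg
Col5a1 (chr2:27886275-27886424, plus strand): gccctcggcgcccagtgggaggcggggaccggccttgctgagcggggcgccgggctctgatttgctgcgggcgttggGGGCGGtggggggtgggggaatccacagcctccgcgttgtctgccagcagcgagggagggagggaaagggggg
Col11a2 (chr17:34038988-34039137, plus strand): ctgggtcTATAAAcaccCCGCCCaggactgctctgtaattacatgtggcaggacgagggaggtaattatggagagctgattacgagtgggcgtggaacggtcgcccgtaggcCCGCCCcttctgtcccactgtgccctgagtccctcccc
Col9a1 (chr1:24177460-24177609, plus strand): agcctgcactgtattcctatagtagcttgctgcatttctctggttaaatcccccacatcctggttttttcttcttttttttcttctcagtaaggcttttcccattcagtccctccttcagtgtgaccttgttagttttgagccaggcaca
Col13a1 (chr10:61979109-61979258, minus strand): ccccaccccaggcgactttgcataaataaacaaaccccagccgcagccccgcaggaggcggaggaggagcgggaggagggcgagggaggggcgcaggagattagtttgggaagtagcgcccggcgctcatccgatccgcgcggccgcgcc
Of the 44 genes, 35 matched the promoter table, with 38 start windows between them. TATAAA, the core of a TATA box, was present in 4 of these windows, where 7.57% of all 32851 windows of the same length hold it. CCAAT was in 8 (21.1%, all windows 24.5%) and GGGCGG, a GC box, in 19 (50%, all windows 28.6%). AACAAT, the core bound by SOX proteins, was in 0 of the 38, against 5.31% of all windows. CCAAT and AACAAT share their last letters, and none of the 4 motifs contains another. A match is a description of the letters, not a binding site.

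Among the fibrillar collagens, 9 of 10 tested members had a difference below 0, with a class median of -0.83 and 0 calls by edgeR or DESeq2. Col1a1, the main chain of type I collagen (ENSMUSG00000001506, chromosome 11, 94936224 to 94953042, plus strand of GRCm38), stood at 2343, 578, 1109.9, 1224 and 1049 CPM in EIC 1 to EIC 5 and at 822, 1162, 131, 277 and 1230.3 CPM in 16IC 1 to 16IC 5. The 16IC tumours 3 and 4 were the lowest of all, while 16IC 1, 16IC 2 and 16IC 5 lay within the EIC range. Its log2 difference was -0.80 (SE 0.58), the 95% interval reached from -2.09 to 0.49, and edgeR gave an adjusted p of 0.559. Col3a1, the type III chain of pliable tissue (chromosome 1, 45311538 to 45349706), had the same lowest tumours. It stood at 2233, 576, 562, 1509.9 and 839.6 CPM in EIC and at 741, 1036, 108, 297 and 981 CPM in 16IC, a difference of -0.85 with SE 0.60 (adjusted p = 0.548, edgeR).

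Type V collagen nucleates type I fibrils and limits their width. Col5a3, its tested fibrillar chain with the smallest p (chromosome 9, 20770050 to 20815067), stood at 34.9, 16.1, 58.1, 42.8 and 19.7 CPM in EIC and at 17.8, 27.7, 10.8, 13.1 and 16.7 CPM in 16IC. The genotypes overlapped, and the difference of -0.99 (SE 0.37) had an unadjusted p of 0.0232 and an adjusted p of 0.325 by edgeR. Col1a2, Col5a1 and Col5a2 had differences of -0.76, -0.92 and -1.03, and their lowest levels were again in 16IC 3 and 16IC 4. Without EIC 2, DESeq2 also called Col5a3 (-1.17, adjusted p = 0.0367), in a fit that called 839 genes in all. Without the same tumour, edgeR gave it an adjusted p of 0.177.

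The remaining fibrillar chains did not share that order of tumours. These genes are named after their values were seen. Col11a1, a type XI chain of cartilage fibrils, was at 203, 1493, 2269, 488 and 186 CPM in EIC and at 1238, 406, 633, 937 and 409.7 CPM in 16IC. Its highest tumours were EIC 3, EIC 2 and 16IC 1, so neither genotype was set apart. Its difference was -0.36, and 0.29 without EIC 3. Col11a2 ran from 6.07 CPM in 16IC 2 to 160.0 CPM in EIC 2, with a difference of -0.45, and 0.50 without EIC 2. Col27a1, a type XXVII chain found in cartilage, was at 213 CPM in EIC 2 and 6.38 to 26.4 CPM in the other EIC tumours. In 16IC it was at 415, 18.0, 177, 259 and 15.9 CPM, so that high and low tumours occurred in both genotypes. Its difference of 1.63 had an SE of 1.10 (adjusted p = 0.524, edgeR), and it was 2.298 under voom. Without EIC 2 DESeq2 called it higher in 16IC (3.29, adjusted p = 0.00338), in a fit that called 839 genes in all. Col2a1, the main collagen of cartilage, was low throughout, from 0.238 CPM to 15.01 CPM in EIC 1.

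**Figure D3:**
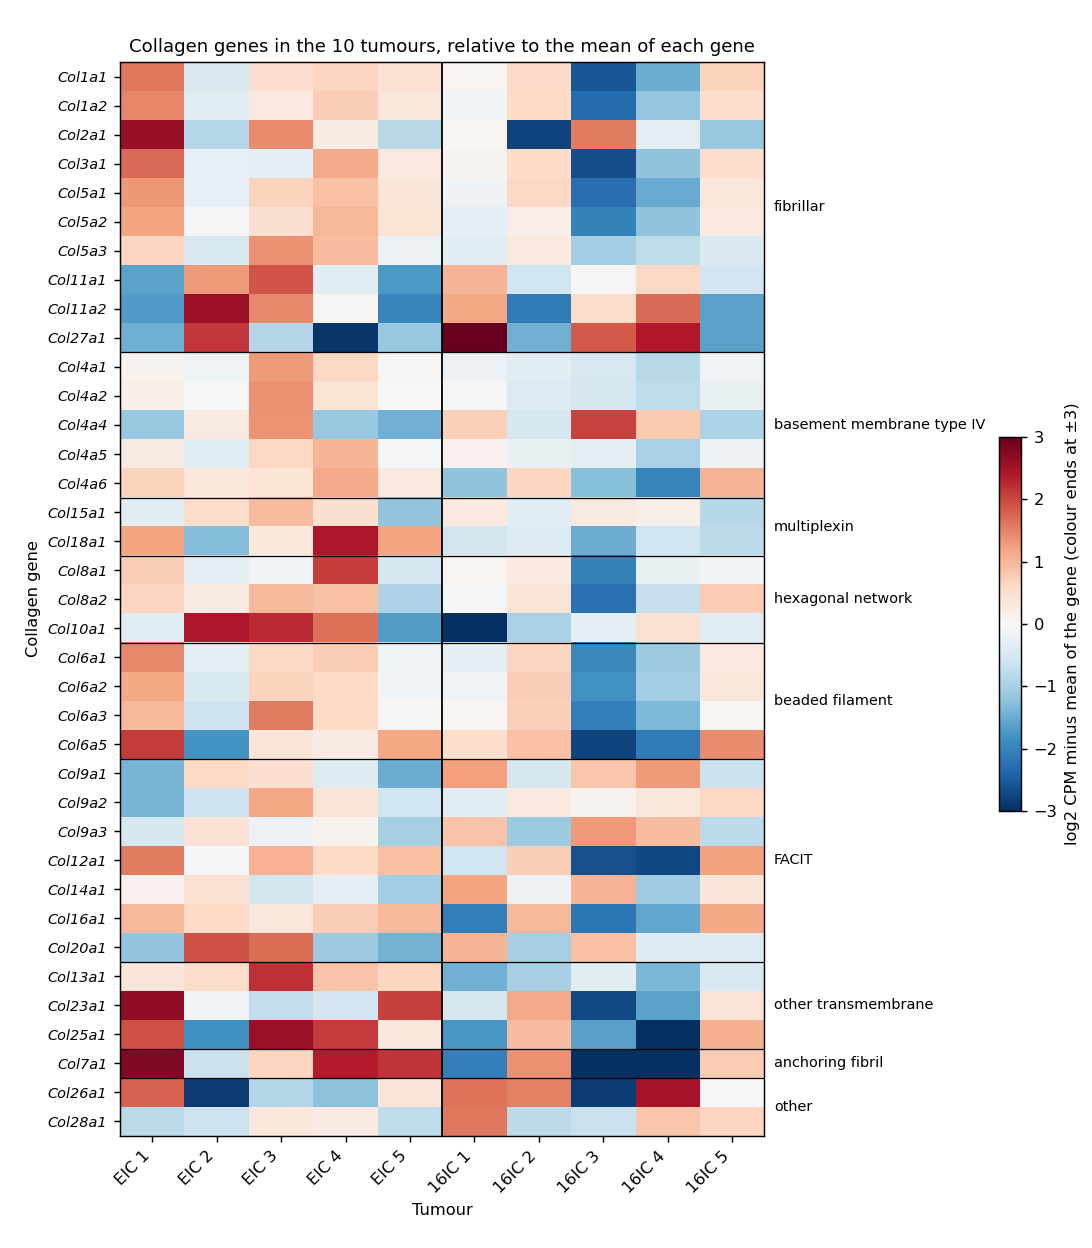
Colour shows log2 CPM minus the mean of each gene for the 37 tested collagen genes (rows, by class) in the 10 tumours (columns, EIC left of the line). Types I, III, V, VI and XII are blue in 16IC 3 and 16IC 4, whereas Col9a1, Col9a3, Col11a2 and Col27a1 are red in EIC 2, 16IC 1, 16IC 3 and 16IC 4.

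FACIT collagens divided within the class, with 4 tested members above 0 and 3 below and a median of 0.17 (-0.45 without the count filter). Col9a1 (chromosome 1, 24177610 to 24252684, plus strand) was at 346, 1365, 1292, 691 and 321 CPM in EIC and at 2128, 635, 1614, 2192 and 580.3 CPM in 16IC. Its highest levels were in 16IC 4, 16IC 1 and 16IC 3, followed by EIC 2 and EIC 3, and the genotypes overlapped. Its difference was 0.83 (SE 0.53), the 95% interval reached from -0.34 to 2.01, and edgeR gave an adjusted p of 0.503. Col9a2 and Col9a3, the partner chains of the type IX trimer, had differences of 0.17 and 0.67. Per kilobase, Col9a1 was 1.50 to 4.42 times Col9a3 but 0.902 to 6.28 times Col9a2 across tumours, so the ratio to Col9a2 ranged more widely.

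The cartilage markers gave the following values beside type IX and type XI collagen. Comp, a matrix protein of cartilage and tendon, was at 1359 CPM in EIC 2, 632 CPM in 16IC 1, 1299 CPM in 16IC 3 and 880.1 CPM in 16IC 4, and at 6.68 to 192 CPM in the other tumours. Cnmd ran from 5.19 to 276 CPM. Acan, the large proteoglycan that defines cartilage, was at most 0.235 CPM in 16IC and 31.5 CPM in EIC 1, and Matn1 was at or near 0 in every tumour. DESeq2 called Acan lower in 16IC (adjusted p = 0.00162), and edgeR did not test it under the count filter. Without that filter edgeR gave a difference of -6.38 (adjusted p = 0.317). Comp was thus highest in the tumours with much Col27a1, while Acan and Matn1 were not. Cnmd was highest in most of those tumours, but was higher in EIC 3 than in 16IC 4. The part of these markers in the type IX and XI values was not tested.

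Of the other FACIT genes, Col12a1 and Col16a1 were closer to type I collagen in their order of tumours, and Col14a1 and Col20a1 were not. Col12a1, which decorates fibrils in tissue under tension, had 328, 108, 231, 169 and 208 CPM in EIC and 74.2, 187, 17.9, 16.7 and 258 CPM in 16IC (difference -0.92, SE 0.71, with -1.51 without 16IC 5 and -1.68 under voom). Col16a1, named after its values were seen, was even in EIC, from 352 to 549 CPM. In 16IC it was at 66.1, 62.0 and 93.8 CPM in 16IC 1, 16IC 3 and 16IC 4 and at 559 and 621 CPM in 16IC 2 and 16IC 5. Its difference of -0.74 had an SE of 0.66 (-1.505 under voom), and those low tumours are the 16IC ones with little Krt19. EIC 2, which also had little Krt19, had 423 CPM of Col16a1. Col14a1 and Col20a1 had differences of 0.64 and -0.50. Col14a1 was highest in 16IC 1 and 16IC 3 (138 and 123 CPM), and Col20a1 in EIC 2 and EIC 3 (11.8 and 10.2 CPM). Col19a1 and Col22a1 had 5 and 23 counts in all 10 libraries together.

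Beaded-filament collagen followed type I. Col6a1 (chromosome 10, 76708792 to 76726168, minus strand), the leading type VI chain, was at 302, 90.9, 173, 186 and 103 CPM in EIC and 93.4, 174, 29.1, 52.3 and 136 CPM in 16IC. The lowest levels were again in 16IC 3 and 16IC 4, and the difference was -0.82 with SE 0.48 (adjusted p = 0.475, edgeR). Col6a2 and Col6a3, which assemble with it, had differences of -0.60 and -0.90. Per kilobase, Col6a1 was 1.91 to 2.55 times Col6a2 in every tumour. The alternative chain Col6a5 was at most 3.48 CPM, Col6a6 below 1 CPM, and Col6a4 had 4 counts in all.

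Col4a1, Col4a2 and Col4a5 had the narrowest intervals of the 37 tested members, while those of Col4a4 and Col4a6 were wider (SE 0.70 and 0.54). Col4a1 (chromosome 8, 11198423 to 11312826, minus strand), a chain of the ubiquitous type IV trimer, was at 627, 539.6, 1424, 905 and 602 CPM in EIC and at 522, 462, 423, 332 and 547 CPM in 16IC. Only EIC 2 lay within the 16IC range, at its upper end. The difference was -0.84 (SE 0.28), the 95% interval reached from -1.46 to -0.22, and the edgeR adjusted p was 0.290. Col4a2, its partner (11312805 to 11449287, plus strand), was at 387, 345, 889, 458 and 339 CPM in EIC and 336, 265, 242, 202 and 295 CPM in 16IC. Every 16IC tumour was below every EIC tumour, with 339 CPM in EIC 5 against 336 CPM in 16IC 1 as the closest pair, and the difference was -0.85 with SE 0.28 (adjusted p = 0.290, edgeR). DESeq2 did not call either gene in all 10 tumours, with adjusted p-values of 0.110 and 0.114. It called Col4a1 without EIC 2 (-0.96, adjusted p = 0.0362), in a fit that called 839 genes in all. The endothelial markers, from vessels with their own basement membrane, had a sum of 143 to 265 CPM in the EIC and 87.3 to 244 CPM in the 16IC tumours. For the pericyte and smooth muscle markers the sum was 251 to 623 CPM in the EIC tumours, highest in EIC 3 as for Col4a1, and 276 to 435 CPM in the 16IC tumours. Notch3, with a difference of 0.21, led that sum. Of these 6 markers, 4 were below 0 (52.3% of all genes tested) and 2 above, with a median of -0.88. For the endothelial markers the median was -0.18. Their part in the type IV values was not tested.

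Type IV genes lie in head-to-head pairs that share the stretch between their starts. Annotated Col4a1 and Col4a2 overlap at their starts by 22 bases, Col4a3 and Col4a4 lie 71 bases apart, and Col4a5 and Col4a6 on the X chromosome lie 1308 bases apart. The pairs differed in how evenly their chains were present. Per kilobase, Col4a1 was 1.38 to 1.75 times Col4a2 in the 10 tumours. Col4a5, a chain of epithelial and glomerular basement membranes, was 1.25 to 2.27 times Col4a6 in EIC. In 16IC the same ratio was 4.98, 1.07, 3.90, 4.04 and 0.874 in 16IC 1 to 16IC 5. Levels of Col4a6 were 59.7, 56.3 and 34.1 CPM in 16IC 1, 16IC 3 and 16IC 4 and 169 to 304 CPM in all other tumours, while Col4a5 ran from 116 to 462 CPM. The choice of this ratio was made once its values were known. Col4a4 had a difference of 0.80, and Col4a3 was below 0.5 CPM throughout.

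The multiplexins are proteoglycan collagens of the basement membrane zone, and the end of the Col18a1 product is released as endostatin. Col18a1 (ENSMUSG00000001435, chromosome 10, 77052178 to 77166548, minus strand) was at 264, 47.0, 143, 618 and 264 CPM in EIC and at 79.0, 87.8, 41.2, 76.1 and 67.4 CPM in 16IC. Of the EIC tumours, 4 were above every 16IC tumour, and EIC 2 was within the 16IC range. Means were 267 ± 216 CPM and 70.3 ± 17.8 CPM (SD, n = 5 each). The log2 difference was -1.93 (SE 0.55), and the 95% interval reached from -3.13 to -0.72. edgeR gave an adjusted p of 0.286 and DESeq2 one of 0.0214, and the authors' deposited table gives -1.93 and 0.0214. The DESeq2 call was lost without any one of EIC 1 (adjusted p = 0.0642), EIC 4 (0.130), EIC 5 (0.0554), 16IC 1 (0.0524), 16IC 3 (0.0856) or 16IC 4 (0.0688). Col15a1, the other multiplexin, had 97.7 ± 47.8 and 79.5 ± 23.5 CPM, a difference of -0.30 with SE 0.37.

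All 3 hexagonal-network genes had differences below 0. Col8a1, a type VIII chain of vessel walls (chromosome 16, 57624258 to 57754737), was at 125, 60.6, 70.8, 314 and 52.6 CPM in EIC and 79.0, 90.8, 18.2, 64.1 and 70.4 CPM in 16IC. EIC 4 and EIC 1 were above every 16IC tumour and 16IC 3 was below every EIC tumour, while the others overlapped. The difference was -0.95 (SE 0.55, adjusted p = 0.474, edgeR), and without EIC 4 it was -0.27, with the median of the 3 genes at -0.47 in place of -0.95. Col10a1, the type X collagen of hypertrophic cartilage (chromosome 10, 34389981 to 34397085), was low, at 1.27, 9.27, 8.15, 5.38 and 0.422 CPM in EIC and 0.0720, 0.773, 1.34, 2.26 and 1.23 CPM in 16IC. Its difference of -2.10 had an SE of 0.87 and an adjusted p of 0.358 by edgeR. Col8a2 had a difference of -0.57.

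**Figure D4:**
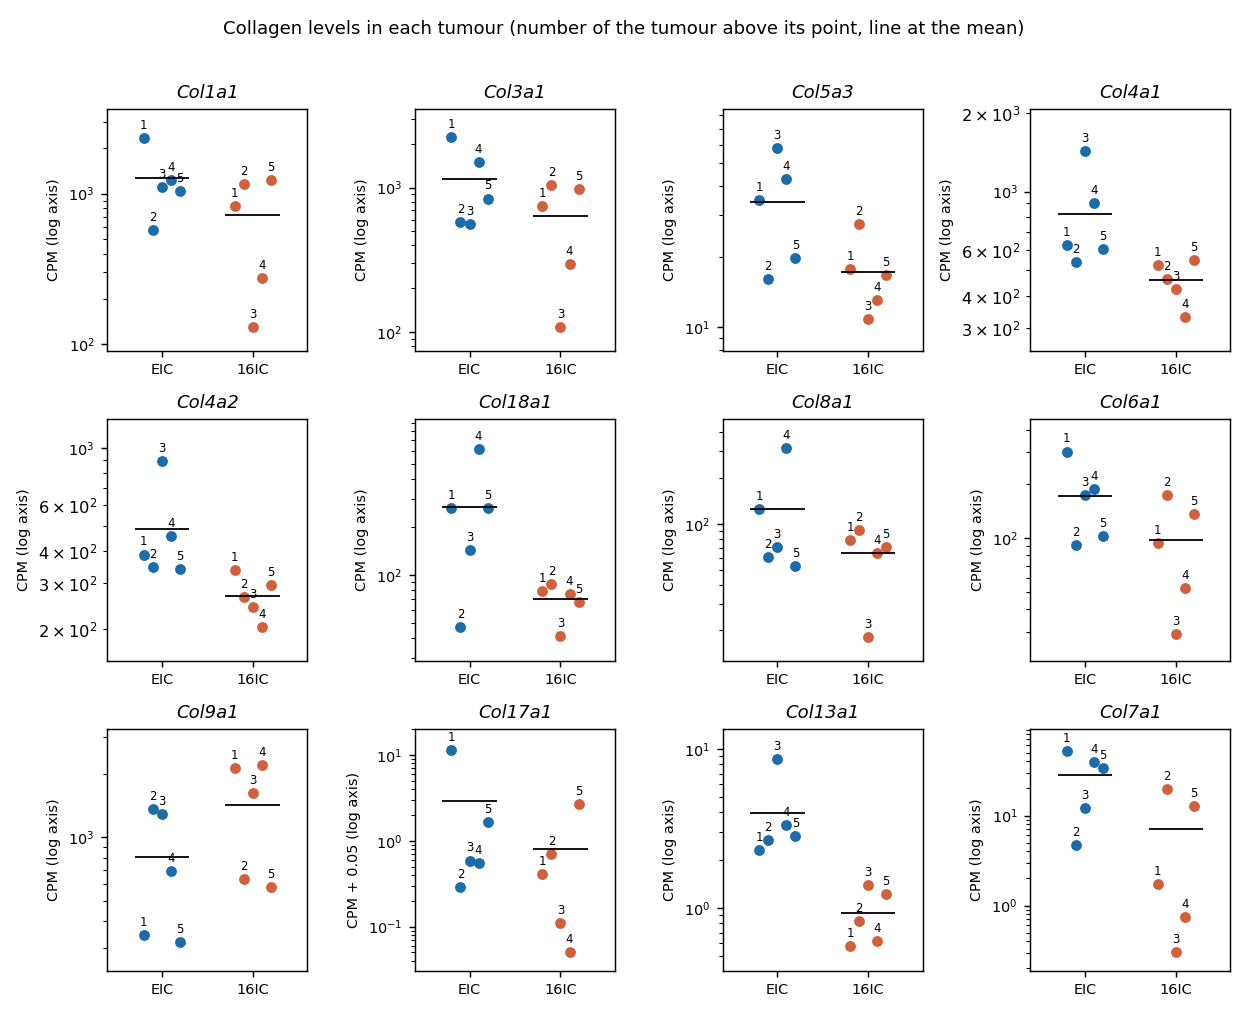
Points give the CPM of 12 collagen genes in each tumour on a log axis (Col17a1 as CPM + 0.05, since 16IC 4 had no count), labelled by tumour number, with a line at the group mean. Col13a1 is the panel with a clear gap between the genotypes, and in Col4a2 the closest pair is 339 and 336 CPM.

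Col13a1, a membrane-spanning collagen of cell-matrix adhesions (ENSMUSG00000058806, chromosome 10, 61838236 to 61979108, minus strand), was the member with the smallest edgeR p. It stood at 2.32, 2.67, 8.63, 3.31 and 2.83 CPM in EIC and at 0.576, 0.833, 1.40, 0.617 and 1.23 CPM in 16IC. All EIC tumours were above all 16IC tumours, at 8 to 144 counts per library. Its difference was -2.07 (SE 0.46), and the 95% interval reached from -3.10 to -1.05. edgeR gave an adjusted p of 0.249 and DESeq2 one of 0.00259, with -2.07 and 0.00259 in the authors' deposited table. DESeq2 called Col13a1 in each of the 10 fits with 1 tumour left out (highest adjusted p = 0.0191). Of the other membrane-spanning genes, Col25a1 was at 41.6, 2.91, 65.9, 46.7 and 13.6 CPM in EIC and at 3.10, 20.7, 3.41, 0.686 and 22.6 CPM in 16IC (difference -1.75, SE 0.96, with -2.43 under voom). Col23a1 had a difference of -1.52, and neither was called.

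Col17a1 (ENSMUSG00000025064, chromosome 19, 47646344 to 47692094, minus strand) was among the scarcest collagens, with 305 counts in all libraries, 195 of them in EIC 1. Its level was 11.3, 0.238, 0.539, 0.500 and 1.63 CPM in EIC and 0.360, 0.654, 0.0608, 0 and 2.64 CPM in 16IC. The genotypes overlapped, and a count of 0 in 16IC 4 allows up to 0.205 CPM for counting error alone. edgeR did not test it under the count filter. Without that filter its difference was -1.90 (adjusted p = 0.485), and DESeq2 gave an adjusted p of 0.427. Of the basal keratins, Krt5 was at 36.3 CPM in EIC 1, 3.87 CPM in 16IC 5 and 2.11 CPM in EIC 5, the same leading tumours, and at 0 in 16IC 4. Krt14 ran from 0 in 16IC 3 to 466 CPM in EIC 1, and was next highest in EIC 4 at 174 CPM, where Col17a1 was at 0.500 CPM. Krt17, called lower in 16IC by DESeq2 (adjusted p = 5.19e-04, with 0.249 and a difference of -4.65 by edgeR), was at 0.356 to 28.6 CPM in EIC, highest in EIC 3, and 0 to 1.58 CPM in 16IC. The full list of 6 basal and myoepithelial markers, with Trp63, Oxtr and Mylk, had 5 below 0 (52.3% of all genes tested) and 1 above. Oxtr, with a difference of 0.62, was highest in 16IC 5 at 106 CPM. Mylk was highest in EIC 2 at 98.0 CPM, where Col17a1 was at 0.238 CPM. Skin keratinocyte markers had a sum of 21.4 CPM in EIC 1 and 3.30 to 6.19 CPM in all other tumours, with Krt1 at 6.14 CPM in EIC 1, and their part in the Col17a1 value was not tested.

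Col7a1, the anchoring-fibril collagen that epithelial cells and fibroblasts both make (chromosome 9, 108953586 to 108984875), was at 52.3, 4.75, 12.0, 39.3 and 33.7 CPM in EIC and at 1.73, 19.7, 0.304, 0.754 and 12.8 CPM in 16IC. It was lowest in the same 3 16IC tumours as Col4a6 and Col16a1, and the genotypes overlapped. The difference of -2.004 had an SE of 1.03 (adjusted p = 0.420, edgeR), and it was -2.85 without 16IC 2 and -3.36 under voom with quality weights. Col28a1, a minor collagen of nerve (chromosome 6, 7997808 to 8192617), was at 0.811, 0.950, 1.92, 1.81 and 0.843 CPM in EIC and at 4.83, 0.833, 0.912, 2.81 and 2.46 CPM in 16IC (difference 0.90, SE 0.53). Col26a1 had a difference of 1.20 with SE 1.16.

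Across the 37 tested members, 16IC 3 held the lowest value of 16 genes and EIC 1 the highest of 12. Over all genes tested, 16IC 3 was lowest for 15.6% and EIC 1 highest for 8.72%. EIC 3 was highest for 10 members, against 13.8% of all genes.

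How far members varied together was described by 17 correlations of log2 CPM over the 10 tumours, which share libraries and stroma (permutation tests with 100000 resamples, two-sided, Benjamini-Hochberg over the 17). Col1a1 moved with Col1a2, the other chain of type I collagen, at a Pearson r of 0.994 (permutation p = 1e-05, the smallest possible, adjusted 8.5e-05) and a Spearman rho of 0.952 (p = 0.00012, adjusted 0.001). Without 16IC 3 and 16IC 4, the tumours farthest from the median of Col1a1, r was 0.980. With Col3a1, Col5a2, Col6a1 and Col12a1, r ran from 0.941 to 0.968 and rho from 0.855 to 0.927, with permutation p-values up to 0.00028 and 0.0029 and adjusted values up to 0.00068 and 0.0055. Without those 2 tumours r was 0.802 to 0.898. For type IV, Col1a1 with Col4a1 gave r = 0.537 (permutation p = 0.11, adjusted 0.12) and rho = 0.661 (p = 0.044, adjusted 0.05), and r was 0.159 without 16IC 3 and 16IC 4. Col4a1 with Col4a2 gave r = 0.981 (permutation p = 2e-05, adjusted 8.5e-05) and rho = 0.939 (p = 0.00028, adjusted 0.0016), and 0.955 without EIC 3 and EIC 4. Col4a1 with Pecam1, an endothelial marker, gave r = 0.37 (permutation p = 0.27, adjusted 0.27) and rho = 0.503 (p = 0.14, adjusted 0.14), and r was 0.338 without EIC 3 and EIC 4. Whether the 2 coefficients of Col1a1 with Col1a2 and with Col4a1 differ was not tested.

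Col17a1 with Krt5 gave r = 0.981 (permutation p = 1e-05, adjusted 8.5e-05) and rho = 0.964 (p = 7e-05, adjusted 0.001), and r was 0.942 without EIC 1 and 16IC 4. Col17a1 with Krt14 gave r = 0.801 (permutation p = 0.0038, adjusted 0.0059) and rho = 0.818 (p = 0.006, adjusted 0.0085), and r was 0.647 without those tumours. With Trp63, a basal transcription factor, r was 0.856 (permutation p = 0.00086, adjusted 0.0016) and rho 0.842 (p = 0.0035, adjusted 0.006), and r was 0.784 without them. Several of these tumours have few counts of Col17a1 and Krt5. Col1a1 with Col17a1 gave r = 0.828 (permutation p = 0.0038, adjusted 0.0059) and rho = 0.879 (p = 0.0017, adjusted 0.0048), with r = 0.858 without 16IC 3 and 16IC 4. Col1a1 with Krt14 gave r = 0.832 (permutation p = 8e-04, adjusted 0.0016) and rho = 0.867 (p = 0.0021, adjusted 0.005), and r was 0.833 without the same tumours. Col1a1 with Col18a1 gave r = 0.633 (permutation p = 0.049, adjusted 0.055) and rho = 0.648 (p = 0.048, adjusted 0.051), and r was 0.569 without them. The r of Col1a1 with Pdgfrb and with Col8a1 fell without 16IC 3 and 16IC 4, as did that with Col4a1. Col1a1 with Pdgfrb, a receptor of fibroblasts and pericytes, gave r = 0.741 (permutation p = 0.016, adjusted 0.021) and rho = 0.818 (p = 0.0056, adjusted 0.0085), and r was 0.376 without those tumours. Col1a1 with Col8a1 gave r = 0.722 (permutation p = 0.022, adjusted 0.027) and rho = 0.733 (p = 0.02, adjusted 0.024), and r was 0.425 without them. Col1a1 with Pecam1 gave r = 0.818 (permutation p = 0.01, adjusted 0.014) and rho = 0.806 (p = 0.0072, adjusted 0.0095), and r was 0.737 without 16IC 3 and 16IC 4 and 0.534 without 16IC 3 alone (adjusted p = 0.17). After centring each genotype, r was 0.992 for Col1a1 with Col1a2, 0.965 for Col4a1 with Col4a2 and 0.984 for Col17a1 with Krt5. It fell to 0.484 for Col1a1 with Col18a1, 0.327 for Col1a1 with Col4a1 and 0.269 for Col4a1 with Pecam1.

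**Figure D5:**
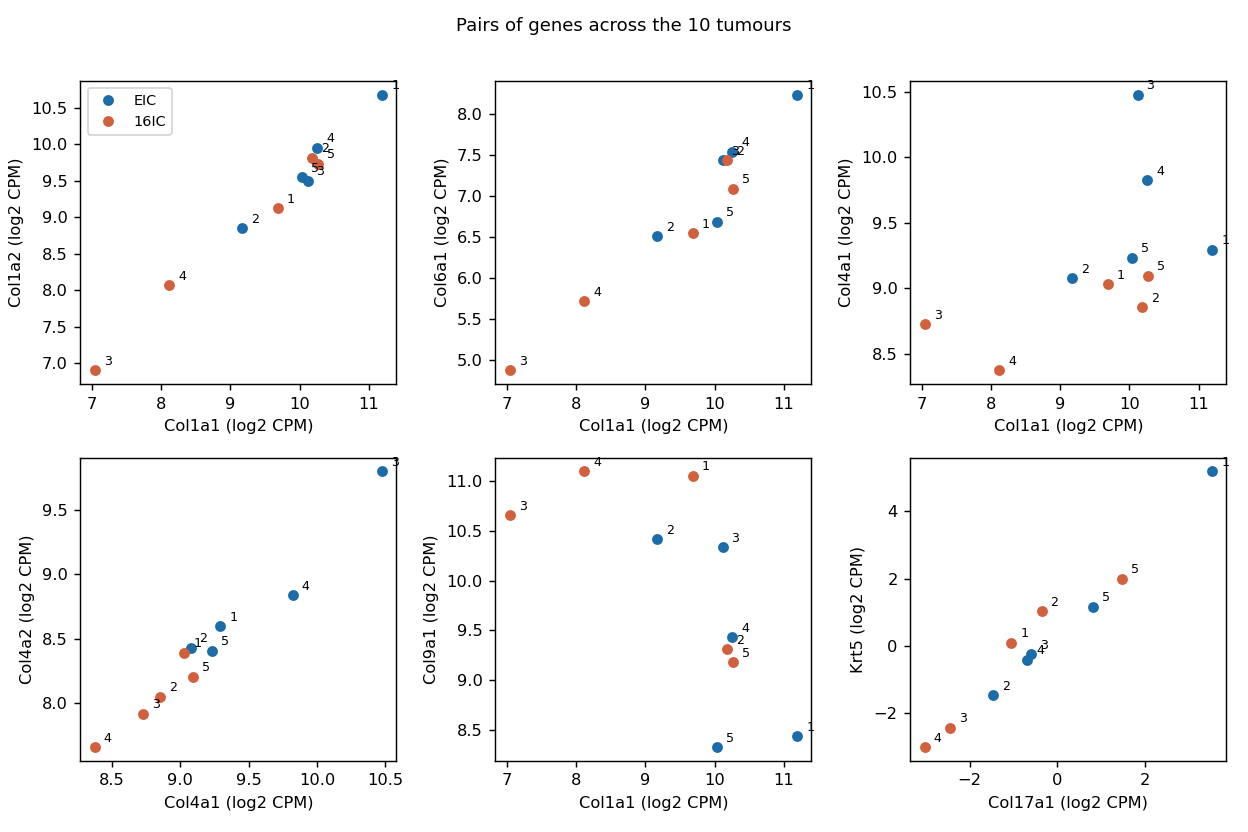
Each panel plots log2 CPM of 2 genes in the 10 tumours, labelled by number and coloured by genotype. Col1a2 and Col6a1 lie along a line with Col1a1, the points of Col4a1 scatter more, and Col9a1, which was not among the tested relations, is highest in 16IC 4, 16IC 1 and 16IC 3.

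The other genes of collagen production and sensing were read from lists. Of 19 genes of chain modification and folding, all tested, 14 were below 0 and 5 above, with a median of -0.23. Over all genes tested, 52.3% were below 0, and DESeq2 called 1.27% of the genes with an adjusted p lower in 16IC. P4ha2, a prolyl hydroxylase subunit that steadies the triple helix, was at 22.8, 16.0, 94.8, 24.9 and 19.5 CPM in EIC and 4.03, 13.0, 13.4, 4.66 and 14.6 CPM in 16IC. It was lower in 16IC without overlap, as were 1.19% of all genes tested. Its difference was -1.84 with SE 0.58 (adjusted p = 0.290 by edgeR, 0.0465 by DESeq2), and the DESeq2 call was lost without any one of EIC 1, EIC 3, EIC 4, 16IC 1, 16IC 3 or 16IC 4 (adjusted p up to 0.199). P4ha1, the main form of that subunit, averaged 151 ± 57.9 CPM over the EIC and 74.9 ± 31.5 CPM over the 16IC tumours (difference -1.01, adjusted p = 0.290 by edgeR).

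All 13 genes of secreted processing and crosslinking had differences below 0 (52.3% of all genes tested), with a median of -0.69. DESeq2 called 3 of them lower in 16IC, against 1.27% of all genes with an adjusted p. Loxl2, a lysyl oxidase that crosslinks fibrils and type IV collagen, averaged 37.9 ± 17.3 CPM over the EIC and 14.5 ± 6.45 CPM over the 16IC tumours (difference -1.38, SE 0.38, adjusted p = 0.264 by edgeR and 0.0280 by DESeq2). Loxl4, of the same family, was at 7.65 ± 6.01 and 1.89 ± 0.451 CPM (-2.01, SE 0.56, 0.272 and 0.0195). Adamts14, which trims the ends of fibrillar procollagens, was at 7.73 ± 2.46 and 2.24 ± 1.71 CPM (-1.78, SE 0.56, 0.290 and 0.0414). The genotypes overlapped for each of them. DESeq2 kept Loxl2 in 4, Loxl4 in 5 and Adamts14 in 5 of 10 fits with 1 tumour left out. Loxl2 was lost without any one of EIC 1, EIC 3, EIC 4, 16IC 1, 16IC 3 or 16IC 4 (adjusted p up to 0.109). Loxl4 was lost without any one of EIC 1, EIC 2, EIC 4, 16IC 3 or 16IC 4 (up to 0.0829), and Adamts14 without any one of EIC 1, EIC 3, EIC 4, 16IC 1 or 16IC 3 (up to 0.154).

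Of the 8 fibril organisers, 7 were below 0 (52.3% of all genes tested) with a median of -0.57, and 0 were called. Fn1, the fibronectin that guides fibril assembly, was at 1224, 262, 565, 1038 and 233 CPM in EIC and 241, 249.8, 47.6, 99.1 and 289 CPM in 16IC (difference -1.84, SE 0.60, adjusted p = 0.290 by edgeR). Sparc, a collagen-binding protein, was at 772 ± 229.6 and 517 ± 242 CPM (-0.58, adjusted p = 0.506). Dcn and Lum are in this list and among the fibroblast markers, with differences of -0.05 and 0.05. The fibroblast list as a whole had 7 of 8 members below 0 (52.3% of all genes tested), a median of -0.69 and 0 calls.

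Of 10 collagen receptors, 9 were tested, with 6 below 0 (52.3% of all genes tested) and 3 above and a median of -0.28. Mrc2, the endocytic receptor that takes up collagen fragments, was at 53.2, 31.7, 134, 165 and 61.5 CPM in EIC and 21.5, 30.3, 5.47, 17.6 and 31.4 CPM in 16IC. No 16IC tumour reached the lowest EIC tumour, which held for 1.19% of all genes tested. The difference was -2.07 with SE 0.54 (adjusted p = 0.261 by edgeR and 0.0101 by DESeq2), and the DESeq2 call was lost without EIC 4 (adjusted p = 0.0721) or 16IC 4 (0.0525). Itga11, the integrin chain of fibroblasts that binds fibrillar collagen, was at 10.7 ± 4.13 and 4.92 ± 3.65 CPM (-1.11, adjusted p = 0.391 by edgeR). Ddr1, the epithelial receptor kinase for collagen, had a difference of 0.42.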

How the data were processed

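Bulk RNA sequencing of 10 mouse mammary tumours, 5 EIC and 5 16IC, was read from 1 table of 26063 genes. The submitters' processing notes name Trimmomatic, STAR and HTSeq, besides limma and edgeR, and the build GRCm38 (mm10). They give no version, and the strand setting of the counting is not stated. The deposited raw counts per gene were used for all tests. The authors' FPKM values served only as an alternative scale for levels per length. The authors' normalized counts, a signal scaled by 1 factor per library, were not used further. From the authors' deposited comparison, log2 fold changes and adjusted p-values are quoted for Col13a1 and Col18a1 only. The tool behind them is not stated. Their values equal those of the DESeq2 fit to the digits given, so they are not separate evidence.

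The test was the robust quasi-likelihood fit of edgeR 4.0.16 (R 4.3.3) with TMM factors, filterByExpr at a minimum count of 10 and genotype alone in the model. P-values were adjusted by Benjamini-Hochberg over 14915 genes, with a threshold of 0.05. DESeq2 1.42.0 called the same 356 genes as the authors' table. Its calls, voom of limma 3.58.1, other scalings and filters, and fits without each tumour were alternatives. Log2 CPM used a prior count of 2. The script was tested on simulated data. There a limit on false calls was set for edgeR only, and those of DESeq2 were recorded without a limit. All calls of collagen genes given here are from DESeq2. Levels per length divide CPM by the exon length in the table. All 44 positions match GENCODE release M21, and exons of other genes cover at most 6.07% of any member.

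The members, classes and lists were chosen with earlier results of these data known. Values in every tumour were given for the highest member per length and the smallest edgeR p of each class, Col17a1, Col1a1, Col3a1, Col4a1 and every member called by edgeR or DESeq2. Of each pathway list, the 2 genes with the smallest edgeR p and those called are named. Each tumour is from a different animal. The labels give no batch or date. Adjusted p-values that DESeq2 left as missing stayed missing.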

Additional observations from a re-analysis of the deposited data

Results flagged for a closer look

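In groups of 5 tumours, 1 tumour stood far from the others by Dixon's criterion in 7 of the 68 groups examined (34 genes in 2 genotypes). In each of the 7 the far tumour was the highest. The criterion's rate of about 1 in 20 is for independent, normally distributed values. CPM of genes from the same tumours are not independent, so the 7 cannot be set against that rate. EIC 3 was the far tumour for Col4a2 (889 CPM, the others 339 to 458 CPM), for Col13a1 (8.63 CPM, the others 2.32 to 3.31 CPM) and for P4ha2 (94.8 CPM, the others 16.0 to 24.9 CPM). EIC 4 was far for Col8a1 (314 CPM, the others 52.6 to 125 CPM), and EIC 2 for Col27a1 (213 CPM, the others 6.38 to 26.4 CPM). For Col17a1 the far tumours were EIC 1 (11.3 CPM, the others 0.238 to 1.63 CPM) and 16IC 5 (2.64 CPM, the others 0 to 0.654 CPM).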

How the results depend on the processing

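No paired analysis was possible because the labels give no replicate numbers that tumours of both genotypes share. edgeR called 0 collagen genes under RLE scaling, total-count scaling, no filter, a filter of 1 CPM in 5 libraries and each fit without 1 tumour, and voom with quality weights called 0, while DESeq2 called 2. Fits of DESeq2 without 1 tumour called 1 to 5, and 178 to 839 genes in all. The fit with 5 was the one without EIC 2, which called 839 genes in all. Of the tested members, 29 were lower in 16IC under RLE and total-count scaling, 29 to 31 of 37 to 39 tested without 1 tumour, and 26 under voom. The FACIT median was -0.45 without the filter, which adds 2 barely counted genes, and -0.04 to 0.56 without 1 tumour. The difference of Col11a1 turned to 0.78 under voom and 0.29 without EIC 3 (-0.62 to 0.29 without 1 tumour), and that of Col11a2 to 0.45 under voom and 0.50 without EIC 2 (-0.93 to 0.50). The cause was not tested. Without 1 tumour, r with Col1a1 ran from 0.532 to 0.705 for Col18a1, 0.425 to 0.851 for Col8a1, 0.584 to 0.905 for Pdgfrb and 0.534 to 0.927 for Pecam1. With genotypes centred it was 0.651 for Pdgfrb (adjusted p = 0.051). Leaving out tumours one at a time for correlations, and the coding transcript as length, were chosen after seeing the data. Genes under about 1 CPM are limited by depth.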
